A study of Mus musculus with 8 samples.

Results

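The genes described here are 10 cell adhesion genes of the melanocyte surface, 6 cadherins and 4 immunoglobulin superfamily members, taken by symbol from a table of 24421 genes measured by RNA-seq in mouse skin. The cadherins are Cdh1 (E-cadherin), Cdh2 (N-cadherin), Cdh3 (P-cadherin), Cdh6, Cdh11 and Cdh19. The immunoglobulin genes are Ncam1, Nrcam, L1cam and Mcam. All 10 were in the table and all 10 passed the filter on low values.

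The cells came from 4 C57BL/6J mice that carried the ROSA mTmG reporter together with Tyr:CreERT2. In that reporter every cell makes a membrane tdTomato protein until Cre recombinase removes the tdTomato cassette, after which the cell and its descendants make membrane EGFP. The Cre is released by tamoxifen and is driven by regulatory sequence of tyrosinase, a gene of the melanocyte lineage, so the EGFP+ cells are those in which that sequence was active during tamoxifen treatment. The groups were EGFP+ cells of 2 mice given UVB light at 150 mJ/cm2 for 3 days, EGFP+ cells of 2 mock-treated mice, tdTomato+ cells of the same 2 UVB mice and tdTomato+ cells of the same 2 mock-treated mice. They are called UV EGFP+, no UV EGFP+, UV tdTomato+ and no UV tdTomato+ cells below. All 4 groups shared the reporter, the Cre, 10 days of tamoxifen from day 21, shaving and depilation on day 50 and collection of back skin on day 54. The UV replicates 1 and 2 are mice 3 and 4, and the no UV replicates 1 and 2 are mice 1 and 2.

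Cadherins are calcium-dependent adhesion proteins that bind their own kind on the neighbouring cell and are tied to the actin cytoskeleton through catenins. In epidermis, E-cadherin and P-cadherin hold melanocytes to keratinocytes, while N-cadherin is a cadherin of neural, mesenchymal and endothelial cells that melanoma cells often make in place of E-cadherin. NCAM, NrCAM and L1 are adhesion proteins of neurons and of neural crest derivatives, and MCAM is an adhesion protein of endothelium, pericytes and melanoma.

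The libraries held 11186363 to 16711981 reads and 11186 to 17076 detected genes. The 8 melanocyte markers (Tyr, Dct, Tyrp1, Pmel, Mlana, Mitf, Kit and Sox10) summed to 565657 and 615877 normalized reads in UV EGFP+ cells and 523784 and 583473 in no UV EGFP+ cells, against 23227 and 44454 in UV tdTomato+ cells and 5571 and 2616 in no UV tdTomato+ cells, so the label of the EGFP+ sort was met. The 6 keratinocyte markers summed to 566 to 802 in the EGFP+ libraries, against 198241 to 294046 in the tdTomato+ libraries, and the 6 fibroblast markers to 10.1 to 246, against 8276 to 17429. Mouse 1 differs from the other 3 mice in its reads from Xist and the Y chromosome. Calls that change without both of its libraries are given with that value for the 10 genes and some partner genes. No UV tdTomato+ replicate 2 stood apart in the genes below by low values of Cdh2, Cdh19 and Mcam.

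In normalized reads per kilobase of annotated exon, a scale on which genes of different length can be compared, Cdh1 and Cdh3 had the highest mean of the 10 genes in both populations. In EGFP+ cells the levels were 464 ± 150 for Cdh1 and 379 ± 147 for Cdh3 (SD, n = 4 each), whose ranges overlapped. Cdh19 followed at 166 ± 17.5, and its highest library at 190 lay below the lowest Cdh3 library at 207. Mcam at 92.0 ± 99.0, Nrcam at 77.3 ± 11.02, Cdh2 at 60.2 ± 14.3 and Ncam1 at 54.3 ± 11.1 formed a middle tier whose neighbours did not differ beyond their spread, and Mcam in UV EGFP+ replicate 2, at 238, lay above every Cdh19 library and above Cdh3 in the same library, at 207. L1cam at 16.8 ± 10.2 and Cdh6 at 10.6 ± 4.81 overlapped each other, and Cdh11 was lowest at 1.07 ± 0.30. With the longest transcript in place of all annotated exons, Nrcam at 164 changed places with Mcam at 103 per kilobase. In tdTomato+ cells Cdh1 stood at 647 ± 386, Cdh3 at 106 ± 39.4, Mcam at 40.9 ± 34.9, Cdh19 at 16.7 ± 17.0, Cdh11 at 15.3 ± 8.90, L1cam at 14.3 ± 4.06, Ncam1 at 6.99 ± 1.20, Nrcam at 4.92 ± 2.70, Cdh2 at 4.62 ± 3.64 and Cdh6 at 0.0666 ± 0.0796 per kilobase (SD, n = 4 each). From Cdh3 down to L1cam each gene overlapped the next, as did Ncam1, Nrcam and Cdh2.

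**Figure D1:**
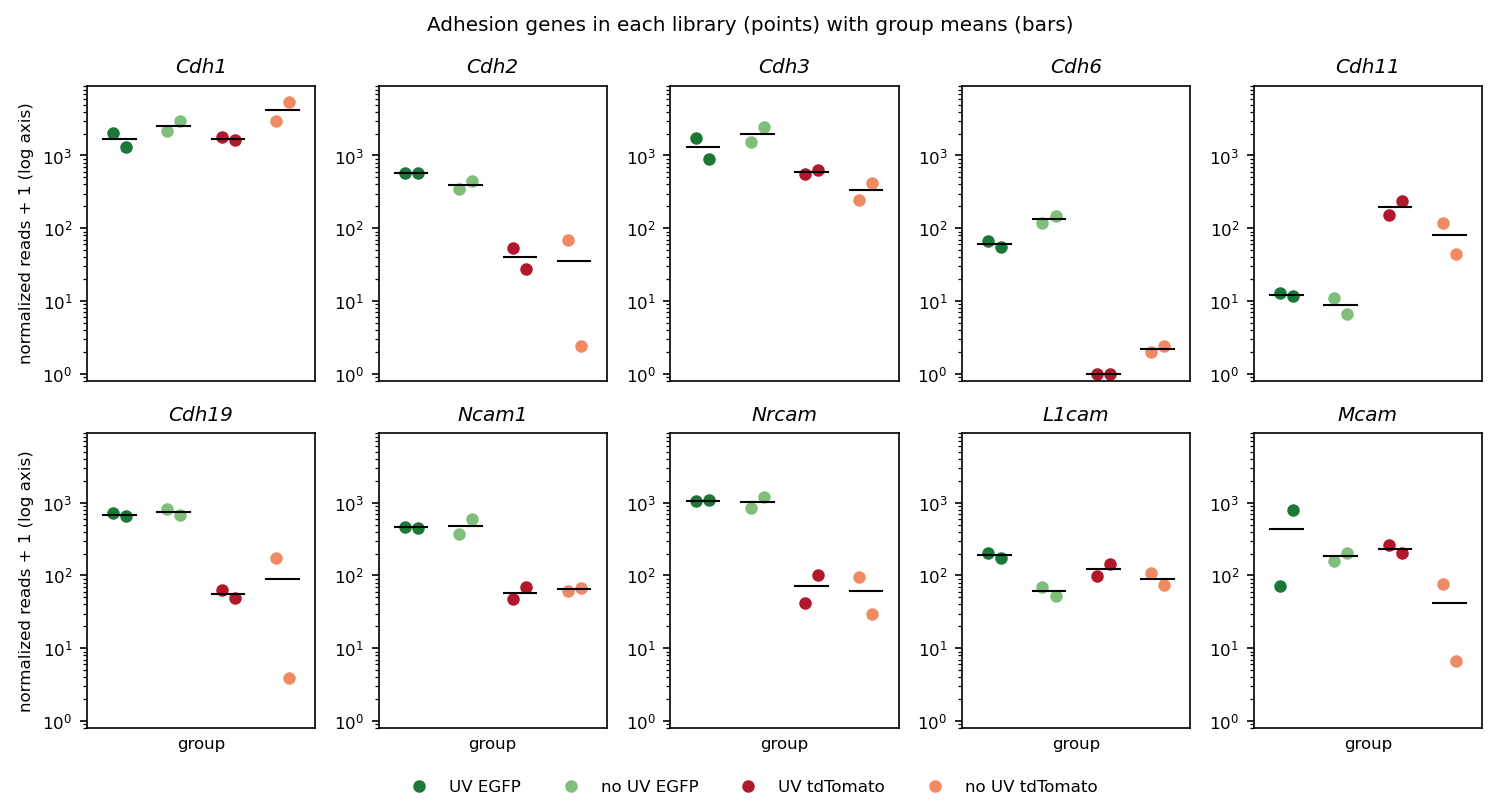
Normalized reads plus 1 (log axis) of the 10 adhesion genes, 1 panel per gene, in UV EGFP+, no UV EGFP+, UV tdTomato+ and no UV tdTomato+ cells from left to right; points are libraries and bars are group means (n = 2 per group). All EGFP+ points of Cdh2, Cdh3, Cdh6, Cdh19, Ncam1 and Nrcam lie above all tdTomato+ points, those of Cdh11 lie below them, and Cdh1, L1cam and Mcam overlap.

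The sort separated the 10 genes into 3 sets. Over all 4 mice Cdh2, Cdh3, Cdh6, Cdh19, Ncam1 and Nrcam were higher in EGFP+ cells and Cdh11 was lower, while Cdh1, L1cam and Mcam did not pass the test. Genes were tested with limma on log2 of the normalized reads plus 1 in a single fit of all 8 libraries, and a gene was called at a Benjamini-Hochberg adjusted p under 0.05 over the 18070 genes tested. Of all these genes 28.9% were called in EGFP+ against tdTomato+ cells over all mice, 9.66% higher and 19.2% lower, beside 6 higher and 1 lower of the 10. The libraries of the 7 called genes did not overlap between populations. The share of all genes without overlap was not counted, here or in UV or no UV mice alone. The median log2 difference was 2.39 over the 10 genes and -0.33 over all genes. In sorted pools, fewer cells of a type and less RNA per cell cannot be told apart. The p-values rest on the spread between 2 mice per group, pooled over groups.

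Cdh1 encodes E-cadherin, the main cadherin of keratinocytes, and lies at chr8:106603351-106670246 on the plus strand (mm10). It had 2036 and 1302 normalized reads in UV EGFP+ cells and 2172 and 2981 in no UV EGFP+ cells, against 1768 and 1642 in UV tdTomato+ cells and 2989 and 5445 in no UV tdTomato+ cells. The populations overlapped, and the highest library was a no UV tdTomato+ one. The log2 difference over all mice was -0.37 ± 0.23 (SE; 95% interval -0.90 to 0.17; limma adjusted p = 0.286). The keratinocyte markers of the EGFP+ libraries, at 566 to 802 normalized reads in sum, were fewer than the reads of Cdh1 alone in each of them. In the tdTomato+ libraries these markers summed to 198241 to 294046, far above Cdh1. The part of keratinocytes in the Cdh1 values was not tested.

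Cdh3 encodes P-cadherin, a cadherin of basal epidermis, hair matrix and melanocytes. It lies at chr8:106510891-106557297 on the plus strand, next to Cdh1 and 46.1 kb from it. Cdh3 had 1738 and 905 normalized reads in UV EGFP+ cells and 1535 and 2471 in no UV EGFP+ cells, against 564 and 632 in UV tdTomato+ cells and 242 and 420 in no UV tdTomato+ cells. Every EGFP+ library was above every tdTomato+ library. The difference was 1.84 ± 0.29 log2 units, or 3.58-fold on the log2(value + 1) scale (limma adjusted p = 0.00175). Without both libraries of mouse 1 it was 1.81 with limma adjusted p = 0.0653.

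Cdh2 encodes N-cadherin. It had 579 and 579 normalized reads in UV EGFP+ cells and 341 and 444 in no UV EGFP+ cells, against 52.2 and 26.9 in UV tdTomato+ cells and 68.5 and 1.43 in no UV tdTomato+ cells. The EGFP+ libraries were all above the tdTomato+ ones, which differed widely among themselves. The difference was 4.41 ± 0.92 log2 units (limma adjusted p = 0.00752), against 3.71 with edgeR and 3.67 with DESeq2 on the recovered reads. Its call was lost without no UV EGFP+ replicate 1 (4.51, limma adjusted p = 0.0781) or replicate 2 (4.32, 0.0801) and without UV tdTomato+ replicate 1 (4.64, 0.0614) or replicate 2 (4.18, 0.0838). Each of the fits that lost the call also called fewer of all genes than the fit of all libraries. The difference of Cdh2 was 5.62 without no UV tdTomato+ replicate 1, 3.20 without no UV tdTomato+ replicate 2 and 5.71 without both libraries of mouse 1. The call held in those 3 fits.

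Among the type II cadherins, Cdh6 is a cadherin of kidney and early neural crest and lies at chr15:13028701-13173675 on the minus strand. It had 65.4 and 55.0 normalized reads in UV EGFP+ cells and 116 and 147 in no UV EGFP+ cells, against 0 and 0 in UV tdTomato+ cells and 0.978 and 1.43 in no UV tdTomato+ cells. In whole reads, the 4 EGFP+ libraries held 423 and the 4 tdTomato+ libraries held 2, which after scaling for depth is a 188.2-fold ratio (95% counting interval 51.79 to 1559). The limma adjusted p was 0.000408. In UV mice alone, with 129 reads against 0, Cdh6 was at least 44.01-fold higher in EGFP+ cells, from a floor of 3 reads over the group. These intervals and floors cover counting error only.

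Cdh19, a cadherin of the Schwann cell lineage and of melanocytes, lies at chr1:110888326-110977584 on the minus strand. It had 727 and 645 normalized reads in UV EGFP+ cells and 812 and 666 in no UV EGFP+ cells, against 61.4 and 48.2 in UV tdTomato+ cells and 174 and 2.85 in no UV tdTomato+ cells. The EGFP+ values lay close together and all were above the tdTomato+ values. The difference was 4.23 ± 0.99 log2 units (limma adjusted p = 0.0131), against 3.39 with edgeR and 3.35 with DESeq2 on the recovered reads. Its call was lost in 5 of 8 fits that left out 1 library: UV EGFP+ replicate 2 (4.27, adjusted p = 0.0595), no UV EGFP+ replicate 1 (4.15, 0.118) or replicate 2 (4.30, 0.101), and UV tdTomato+ replicate 1 (4.31, 0.0977) or replicate 2 (4.14, 0.112). Each of these 5 fits also called fewer of all genes than the fit of all libraries. The difference of Cdh19 was 5.60 without no UV tdTomato+ replicate 1, 2.85 without no UV tdTomato+ replicate 2 and 5.53 without both libraries of mouse 1.

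Of the 6 Schwann cell markers, 4 and 5 were at 0 in the UV EGFP+ libraries and none was at 0 in the no UV EGFP+ libraries. Mbp, myelin basic protein, was at 0 in both UV EGFP+ libraries and at 74.9 and 31.4 normalized reads in no UV EGFP+ cells, against 262 and 117 in UV tdTomato+ cells and 387 and 354 in no UV tdTomato+ cells. Cdh19 stood at 727 and 645 in the UV EGFP+ libraries, in which Mbp, Mal, Ngfr and Sox2 were all at 0. These libraries also had the fewest detected genes, 14503 and 11186, which limits what their zeros can show.

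The tdTomato+ values of Cdh2 and Cdh19 were spread over the libraries unlike the melanocyte markers. As a percentage of the EGFP+ mean, the marker sum was 4.06 and 7.77 in UV tdTomato+ cells and 0.974 and 0.457 in no UV tdTomato+ cells. Cdh2 was at 10.8 and 5.54 in UV tdTomato+ cells and 14.1 and 0.294 in no UV tdTomato+ cells. Cdh19 was at 8.62 and 6.77 in UV tdTomato+ cells and 24.4 and 0.401 in no UV tdTomato+ cells. The highest value of both cadherins was thus in no UV tdTomato+ replicate 1, where the melanocyte markers were at 0.974 and Mbp was at 387, against 0.457 and 354 in no UV tdTomato+ replicate 2. The part of melanocytes or Schwann cells in the tdTomato+ values was not tested.

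Cdh11 encodes a cadherin of osteoblasts and fibroblasts and lies at chr8:102632095-102785642 on the minus strand. It had 11.7 and 10.8 normalized reads in UV EGFP+ cells and 9.98 and 5.70 in no UV EGFP+ cells, against 151 and 234 in UV tdTomato+ cells and 116 and 42.8 in no UV tdTomato+ cells. Every EGFP+ library was below every tdTomato+ library. It was the only called member that was lower in EGFP+ cells, and the difference was -3.51 ± 0.62 log2 units, 11.4-fold lower (limma adjusted p = 0.00337). Under quantile normalization it was -2.40 (adjusted p = 0.0274). The fibroblast markers were also lower in EGFP+ cells, at 10.1 and 246 in UV and 166 and 141 in no UV EGFP+ cells, against 8276 and 11772 in UV and 17429 and 14715 in no UV tdTomato+ cells. Their part in the Cdh11 difference was not tested.

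Cdh1 and Cdh3 together made up most cadherin transcript in both populations, in different proportions. Of the summed level of the 6 cadherins per kilobase, Cdh1 made up 42.4 ± 2.74% in EGFP+ cells and 78.2 ± 12.3% in tdTomato+ cells (SD, n = 4 each). For Cdh3 the shares were 34.2 ± 4.52% in EGFP+ cells and 16.1 ± 10.2% in tdTomato+ cells. Cdh19 held 16.2 ± 4.25% in EGFP+ cells and 2.50 ± 2.15% in tdTomato+ cells, and Cdh2 held 6.07 ± 2.88% in EGFP+ cells and 0.725 ± 0.535% in tdTomato+ cells. None of these shares overlapped between populations. An exact two-sided permutation test of 4 against 4 libraries gave p = 0.0286 for each of the 6 shares and for the Cdh3 to Cdh1 ratio, which is the smallest p it can give, and 0.0286 after adjustment over those 7 measures. The shares are parts of one total and are not independent, and each mouse gave a library to both populations. With labels exchanged only within each of the 4 mice, a scheme added after seeing the data, the exact permutation p was 0.125 for each measure, which is the smallest that scheme can give, so p under 0.05 rests on treating the libraries as unpaired.

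**Figure D2:**
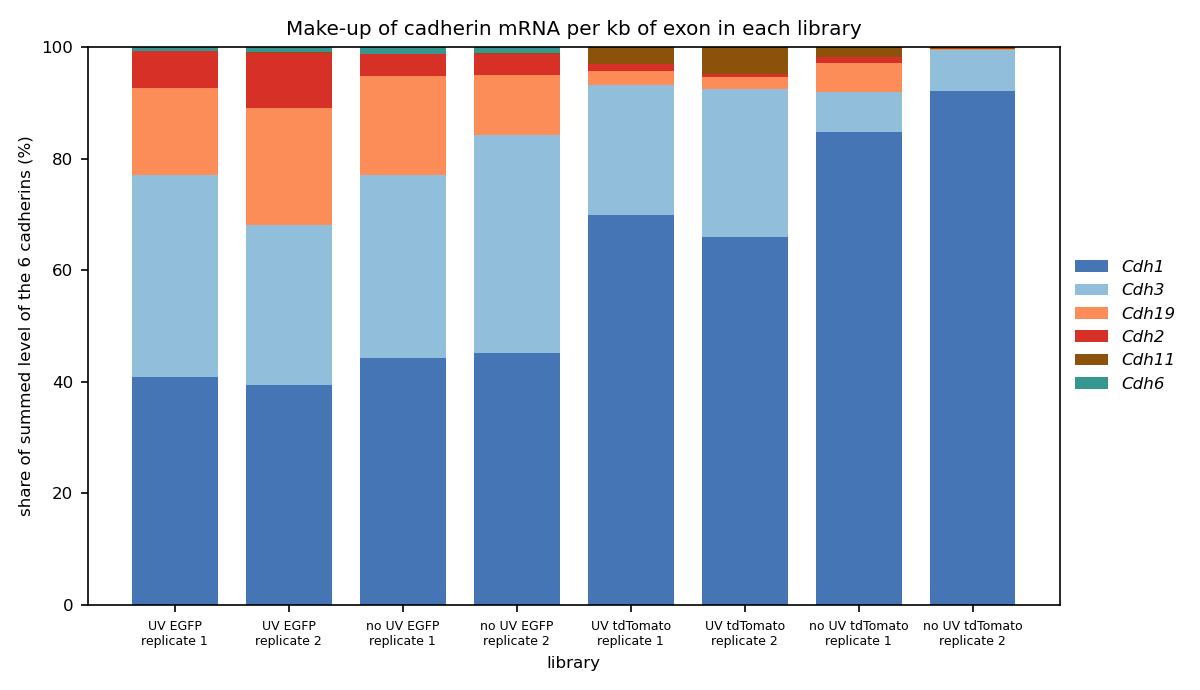
Share (%) of each of the 6 cadherins in their summed level per kilobase of exon, 1 bar per library, with the EGFP+ libraries to the left of the tdTomato+ libraries. Cdh1 takes 39.5% to 45.2% of the bar in EGFP+ libraries and 66.0% to 92.1% in tdTomato+ libraries, and the no UV tdTomato+ bars hold the least Cdh3, at 7.15% and 7.41%.

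The level of Cdh3 relative to Cdh1 was 0.854 and 0.695 Cdh3 reads per Cdh1 read in UV EGFP+ cells and 0.707 and 0.829 in no UV EGFP+ cells, against 0.319 and 0.385 in UV tdTomato+ cells and 0.0808 and 0.0771 in no UV tdTomato+ cells. The ratio was alike in all EGFP+ libraries, while the tdTomato+ libraries fell into a higher UV set and a lower no UV set. A ratio within a library does not depend on the scaling between libraries.

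Ncam1 encodes NCAM, an adhesion protein of neurons and of neural crest cells that also binds FGF receptors and the GDNF receptor Gfra1. The gene lies at chr9:49502136-49798925 on the minus strand, and 4.81% of its exon bases overlap the predicted gene Gm11149, whose reads this unstranded kit cannot tell apart. Ncam1 had 468 and 445 normalized reads in UV EGFP+ cells and 368 and 599 in no UV EGFP+ cells, against 45.8 and 68.6 in UV tdTomato+ cells and 60.6 and 67.1 in no UV tdTomato+ cells. The populations were far apart, and the tdTomato+ libraries agreed closely. The difference was 2.93 ± 0.32 log2 units, 7.63-fold (limma adjusted p = 0.000258). It was called in UV mice and in no UV mice as well.

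Nrcam encodes NrCAM, an adhesion protein of the L1 family at nodes of Ranvier and on growing axons. The promoters of Nrcam and Cdh6 are shown here because both genes were called higher in EGFP+ cells in UV mice as well as in no UV mice. They are the 250 bases before the RefSeq start (GRCm38.p6), on the strand of the gene and 5′ to 3′, for Nrcam at chr12:44328635-44328884 on the plus strand and Cdh6 at chr15:13173676-13173925 on the minus strand. The capitals mark a match to CACCTG, read here on the opposite strand as CAGGTG.
Nrcam: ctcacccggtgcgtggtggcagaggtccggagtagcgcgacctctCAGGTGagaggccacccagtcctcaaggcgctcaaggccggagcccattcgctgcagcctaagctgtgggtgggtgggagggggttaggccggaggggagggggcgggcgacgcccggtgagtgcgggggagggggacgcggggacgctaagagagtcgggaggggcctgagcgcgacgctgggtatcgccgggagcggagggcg
Cdh6: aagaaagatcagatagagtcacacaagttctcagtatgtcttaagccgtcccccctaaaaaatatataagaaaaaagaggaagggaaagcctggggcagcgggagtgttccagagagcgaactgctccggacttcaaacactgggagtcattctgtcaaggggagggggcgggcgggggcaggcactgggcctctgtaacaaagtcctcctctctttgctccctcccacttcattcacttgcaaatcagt

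For these promoters 3 motifs of 6 bases were searched on both strands: CACGTG and CATGTG, which MITF can bind, and CACCTG, which Snail and ZEB proteins can bind. Of the 10 genes, 4 had a promoter in the RefSeq table used, namely Nrcam, Cdh6, Mcam and L1cam. Nrcam held 1 CACCTG match that begins 205 bases before the start and Mcam held 1 that begins 212 bases before it, and Cdh6 and L1cam held none of the 3 motifs. Over 32851 promoters in that table, CACGTG was present in 6.02%, CATGTG in 12.3% and CACCTG in 17.2%. A match is a description of the letters and not a site of binding.

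Nrcam, at chr12:44328885-44601964 on the plus strand, had 1036 and 1078 normalized reads in UV EGFP+ cells and 832 and 1183 in no UV EGFP+ cells, against 41.2 and 100.1 in UV tdTomato+ cells and 92.9 and 28.5 in no UV tdTomato+ cells. The lowest EGFP+ library was well above the highest tdTomato+ library. The difference was 4.13 ± 0.44 log2 units, 17.5-fold (limma adjusted p = 0.000232), which was the smallest adjusted p of the 10 genes. In the authors' deposited table the log2 fold change of Nrcam was 3.92, and it was 2.95 for Ncam1, 6.98 for Cdh6, 3.59 for Cdh2, 3.20 for Cdh19, 1.82 for Cdh3 and -3.75 for Cdh11.

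L1cam encodes L1, an axonal adhesion protein that is also made by melanoma cells, and lies at chrX:73853778-73896105 on the minus strand. It had 201 and 175 normalized reads in UV EGFP+ cells and 68.2 and 51.3 in no UV EGFP+ cells, against 97.1 and 145 in UV tdTomato+ cells and 107 and 72.8 in no UV tdTomato+ cells. The 2 highest libraries were the UV EGFP+ ones and the 2 lowest the no UV EGFP+ ones, with the tdTomato+ libraries between. The log2 difference over all mice was 0.04 ± 0.38 (95% interval -0.82 to 0.91; limma adjusted p = 0.943).

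Mcam encodes MCAM (CD146), which binds laminin containing the alpha 4 chain, and lies at chr9:44134469-44142727 on the plus strand. It had 71.3 and 799 normalized reads in UV EGFP+ cells and 158 and 205 in no UV EGFP+ cells, against 261 and 205 in UV tdTomato+ cells and 76.3 and 5.71 in no UV tdTomato+ cells. UV EGFP+ replicate 2 was the highest of all libraries and UV EGFP+ replicate 1 was among the lowest, so the populations overlapped. The log2 difference was 1.52 ± 0.92 (95% interval -0.57 to 3.61; limma adjusted p = 0.258), and without UV EGFP+ replicate 1 it was 2.39 with adjusted p = 0.0485. The 6 endothelial markers summed to 2.52 and 0 normalized reads in UV EGFP+ cells and 1.66 and 1.90 in no UV EGFP+ cells, against 773 and 93.7 in UV tdTomato+ cells and 192 and 42.8 in no UV tdTomato+ cells. The 6 pericyte and smooth muscle markers summed to 0.839 and 0 in UV EGFP+ cells and 4.99 and 42.8 in no UV EGFP+ cells, against 624 and 143 in UV tdTomato+ cells and 518 and 402 in no UV tdTomato+ cells. In UV EGFP+ replicate 2, with Mcam at 799, all 6 endothelial and all 6 pericyte markers were at 0. That library also had the fewest detected genes of all, 11186, which limits what its zeros can show. The part of vessel cells in the Mcam values was not tested.

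**Figure D3:**
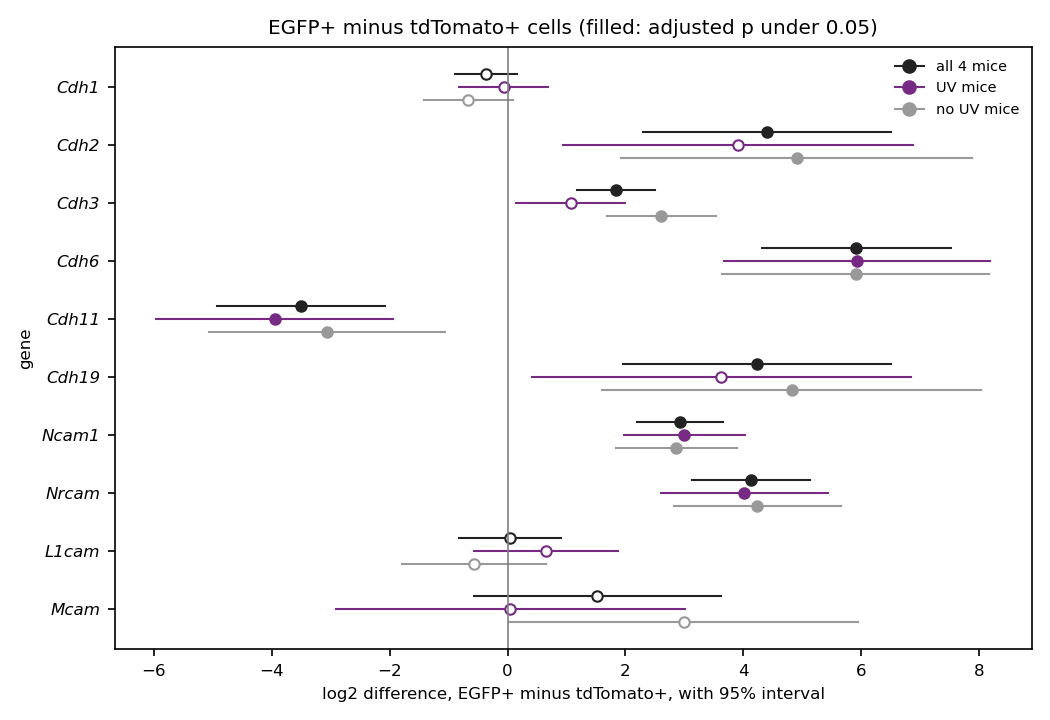
Log2 difference of each gene in EGFP+ minus tdTomato+ cells with its 95% interval, over all 4 mice (black), in UV mice (purple) and in no UV mice (grey); filled points have a limma adjusted p under 0.05. Ncam1, Nrcam and Cdh6 are filled and above 0 in all 3 comparisons, Cdh11 is filled and below 0, and the fitted values of Cdh6 depend on the added 1 read because its tdTomato+ reads were 2 in all.

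Within UV mice alone, Cdh6, Ncam1 and Nrcam were higher and Cdh11 was lower in EGFP+ cells. That was 3 higher and 1 lower of 10, where 17.9% of all genes were called, 5.03% higher and 12.9% lower. The differences were 3.00 ± 0.45 log2 units for Ncam1 (limma adjusted p = 0.0029), 4.02 ± 0.62 for Nrcam (0.0033) and -3.95 ± 0.88 for Cdh11 (0.0169). Cdh2 (3.91 ± 1.30, adjusted p = 0.0744), Cdh19 (3.63 ± 1.40, 0.118) and Cdh3 (1.07 ± 0.41, 0.111) did not overlap between populations but did not pass the test. With edgeR or DESeq2 on the recovered reads these 3 passed too, which made 7 of 10 with either tool. Of the 18070 genes tested, edgeR called 3109 and DESeq2 called 4043 in UV mice, against 3240 with limma. Each of the fits below that left out libraries called fewer of all genes than the fit of all libraries. Leaving out UV tdTomato+ replicate 1 left 2 called, without Nrcam (3.39, limma adjusted p = 0.0678) and Cdh11 (-4.26, 0.0913), and leaving out UV tdTomato+ replicate 2 left 3, without Cdh11 (-3.63, 0.109). It was 6 without no UV tdTomato+ replicate 1 and 6 without no UV tdTomato+ replicate 2, with Cdh2 and Cdh19 added in both. Without both libraries of mouse 1 it was 3, with Nrcam (4.02, limma adjusted p = 0.0708) and Cdh11 (-3.95, 0.0732) lost and Cdh19 (3.63, 0.0411) added. The difference of Nrcam was 4.65 without UV tdTomato+ replicate 2.

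Within no UV mice, the same 6 genes that were higher over all mice were higher in EGFP+ cells and Cdh11 was lower, where 19.2% of all genes were called, 6.67% higher and 12.5% lower. The differences were 4.91 ± 1.30 log2 units for Cdh2 (limma adjusted p = 0.0315), 2.61 ± 0.41 for Cdh3 (0.0031), 4.82 ± 1.40 for Cdh19 (0.045), 2.86 ± 0.45 for Ncam1 (0.00325) and 4.24 ± 0.62 for Nrcam (0.00238). Cdh6 had 294 reads against 2, a 112.4-fold ratio (30.83 to 932.2, limma adjusted p = 0.00444). Cdh11 was at -3.06 ± 0.88 (0.0425), and this call held in 7 of 20 other settings. It was lost with mouse as a block (-3.06, 0.0671), a pseudocount of 0.1 (-3.21, 0.0505), no filter (-3.06, 0.0507), rescaling (-2.78, 0.0618), only the libraries compared (-3.06, 0.0554) and quantile normalization (-2.20, 0.162), and in 6 of 8 settings that dropped a single library. Mcam, at 2.99 ± 1.29 (0.156), Cdh1, at -0.66 ± 0.33 (0.215), and L1cam, at -0.57 ± 0.53 (0.514), did not pass. Mcam passed under quantile normalization (3.89, limma adjusted p = 0.0373). In no UV mice the libraries of all 10 genes, the 3 not called among them, did not overlap between populations. An exact test of 2 against 2 libraries cannot give p under 0.333. The share of all genes without overlap was not counted, so this is no result about the 10 genes. The number called was 6 without UV EGFP+ replicate 1, 5 without UV EGFP+ replicate 2, 4 without no UV EGFP+ replicate 1, 2 without no UV EGFP+ replicate 2 (Cdh6 and Ncam1), 4 without UV tdTomato+ replicate 1 or 2, 5 without no UV tdTomato+ replicate 1 and 6 without no UV tdTomato+ replicate 2. The differences of Cdh2 and Cdh19 were 7.33 and 7.58 without no UV tdTomato+ replicate 1, and 2.49 and 2.07 without no UV tdTomato+ replicate 2. That of Nrcam was 5.07 without no UV tdTomato+ replicate 1 and 3.40 without no UV tdTomato+ replicate 2. Without both libraries of mouse 1 the calls of Cdh3 (2.56), Nrcam (5.32) and Cdh11 (-2.71) were lost. Fewer of all genes were called when either no UV EGFP+ library, either UV tdTomato+ library or no UV tdTomato+ replicate 2 was dropped. More were called when either UV EGFP+ library or no UV tdTomato+ replicate 1 was dropped. Dropping no UV EGFP+ replicate 2 ended the calls of Nrcam (3.98, limma adjusted p = 0.0637) and Cdh3 (2.27, 0.0703), and dropping no UV tdTomato+ replicate 1 ended that of Cdh3 (2.21, 0.0624).

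UV light moved none of the 10 genes past the test in EGFP+ cells. With limma 0 of 10 were called and 1 had an unadjusted p under 0.05, where 0.0166% of all genes were called and 1875 of 18070 had an unadjusted p under 0.05, and edgeR and DESeq2 called 0 as well. Over all genes 3 were called, against 1604 without UV EGFP+ replicate 1 and 818 without both libraries of mouse 1, and none of the 10 genes was called in either. The gene with the smallest p was L1cam, at 188 ± 18.3 normalized reads in UV EGFP+ cells and 59.8 ± 11.9 in no UV EGFP+ cells (SD, n = 2 each). Both UV libraries were above both no UV libraries, and the log2 difference was 1.64 ± 0.53, or 3.13-fold (limma adjusted p = 0.359). Over the alternative settings the difference stayed between 1.44 and 1.85, with adjusted p between 0.0983 and 0.687. In tdTomato+ cells the UV difference of L1cam was 0.42 ± 0.53 (adjusted p = 0.778), and the difference between the UV changes was 1.22 ± 0.75 (limma adjusted p = 0.627).

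The cadherins of EGFP+ cells had UV differences whose 95% intervals all included 0. Cdh1 averaged 1669 ± 519 normalized reads in UV EGFP+ cells and 2576 ± 572 in no UV EGFP+ cells (SD, n = 2 each), a log2 difference of -0.64 ± 0.33 (95% interval -1.40 to 0.11; limma adjusted p = 0.543). Cdh3 averaged 1322 ± 589 in UV EGFP+ cells and 2003 ± 662 in no UV EGFP+ cells, a difference of -0.63 ± 0.41 (-1.56 to 0.29; adjusted p = 0.62). Cdh6 averaged 60.2 ± 7.40 in UV EGFP+ cells and 131 ± 22.5 in no UV EGFP+ cells without overlap, a difference of -1.11 ± 0.99 (-3.37 to 1.15; adjusted p = 0.73). Ncam1 (-0.04 ± 0.45) and Nrcam (0.09 ± 0.62) had the smallest differences, and their libraries overlapped between UV and no UV EGFP+ cells.

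In tdTomato+ cells 0 of the 10 genes were called with limma after UV and 2 had an unadjusted p under 0.05, where 0.559% of all genes were called, 0.349% higher and 0.21% lower. That was 101 genes, against 1772 (432 higher, 1340 lower) without no UV tdTomato+ replicate 1 and 2006 (304 higher, 1702 lower) without both libraries of mouse 1. It was 2 without UV EGFP+ replicate 2, and 0 when either no UV EGFP+ or either UV tdTomato+ library was dropped. Cdh1 averaged 1705 ± 88.6 normalized reads in UV tdTomato+ cells and 4217 ± 1737 in no UV tdTomato+ cells (SD, n = 2 each), without overlap. The difference was -1.24 ± 0.33 log2 units (limma adjusted p = 0.161). The recovered reads gave -1.31 with edgeR (adjusted p = 0.0459) and -1.31 with DESeq2 (adjusted p = 0.0163). Cdh1 was the 1 gene of the 10 that each of them called, where edgeR called 240 and DESeq2 617 of the 18070 genes tested.

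Some markers of other skin cells were also lower in the UV tdTomato+ libraries, without overlap. Krt1, a keratin of the suprabasal epidermis, was at 54.1 and 16.7 normalized reads in UV tdTomato+ cells, against 5874 and 10598 in no UV tdTomato+ cells. Krt10, its partner keratin, was at 673 and 351 in UV tdTomato+ cells, against 12359 and 18394 in no UV tdTomato+ cells. Cd207, the langerin of Langerhans cells, was at 0 in both UV tdTomato+ libraries, against 1237 and 271 in no UV tdTomato+ cells. Other markers of the same lists overlapped, such as Krt14 of basal keratinocytes, at 136671 and 126650 in UV and 100890 and 136012 in no UV tdTomato+ cells, and the macrophage gene Lyz2, at 4006 and 774 in UV and 1910 and 0 in no UV tdTomato+ cells. The 6 keratinocyte markers as a whole summed to 212157 and 198241 in UV tdTomato+ cells, against 220452 and 294046 in no UV tdTomato+ cells, and the 6 leukocyte markers to 4993 and 1341, against 10218 and 2120, with overlap. Their part in the Cdh1 difference was not tested.

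Cdh3 went the other way from Cdh1 in tdTomato+ cells, at 598 ± 48.7 normalized reads in UV and 331 ± 126 in no UV tdTomato+ cells (SD, n = 2 each), a log2 difference of 0.90 ± 0.41 that did not pass (95% interval -0.02 to 1.83; limma adjusted p = 0.385). The difference between its UV changes in EGFP+ and tdTomato+ cells was -1.54 ± 0.57 (limma adjusted p = 0.448). Mcam was at 233 ± 39.8 in UV and 41.0 ± 49.9 in no UV tdTomato+ cells (SD, n = 2 each) without overlap, a difference of 3.35 ± 1.29 (limma adjusted p = 0.316). The difference between the UV changes of Mcam was -2.94 ± 1.83 (adjusted p = 0.629). The endothelial markers, beside which Mcam is expressed in vessels, summed to 773 and 93.7 in UV and 192 and 42.8 in no UV tdTomato+ cells, and their part was not tested. Without no UV tdTomato+ replicate 1, Cdh2 (3.99, limma adjusted p = 0.0221) and Cdh19 (3.85, 0.00346) were called higher in UV tdTomato+ cells, against 1.57 ± 1.30 and 1.09 ± 1.40 with all libraries. Cdh19 was also called higher there without both libraries of mouse 1 (3.85). Cdh6 had 0 reads in UV and 2 in no UV tdTomato+ cells, too few for a fold.

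For the difference between the UV changes, limma called 0 of the 10 genes and 1 had an unadjusted p under 0.05. Of all genes 0.00553% were called with limma. With edgeR and DESeq2 0 of the 10 were called, where edgeR called 75 and DESeq2 286 of all genes. Cdh19 was called without no UV tdTomato+ replicate 1 (-3.95) and without both libraries of mouse 1 (-3.81), against -1.20 ± 1.99 with all libraries. Both fits left 1 no UV tdTomato+ library and called many more of all genes than the fit of all libraries, so the call does not set Cdh19 apart.

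**Figure D4:**
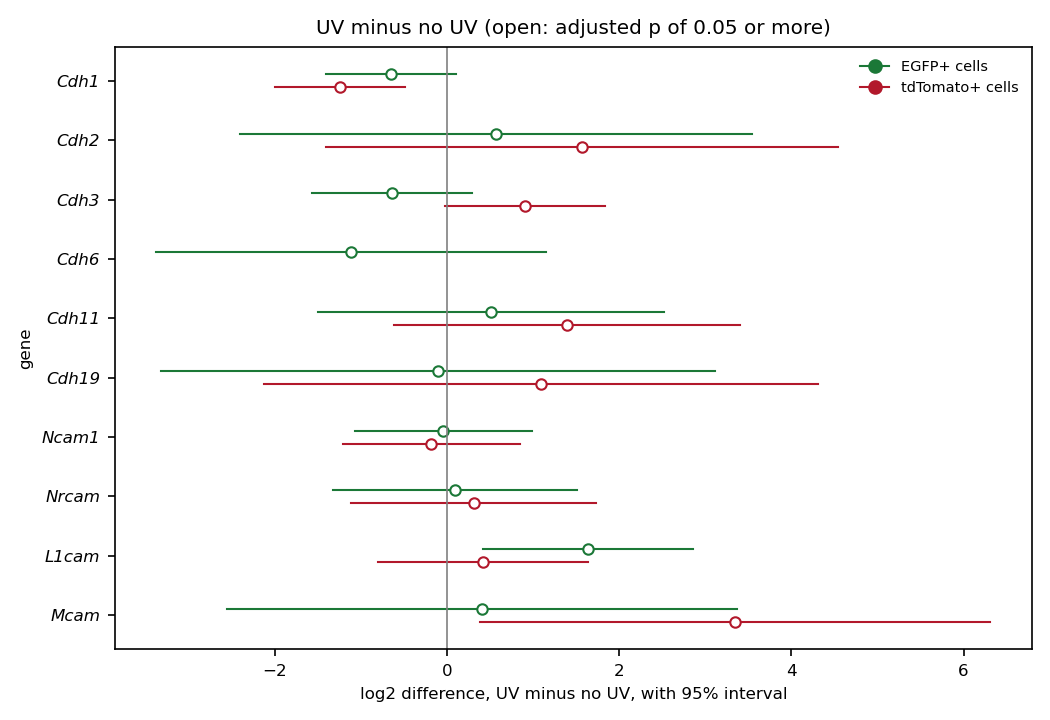
Log2 difference of each gene in UV minus no UV mice with its 95% interval, in EGFP+ cells (green) and tdTomato+ cells (dark red); all points are open, since none has a limma adjusted p under 0.05. L1cam in EGFP+ cells (1.64) and Cdh1 (-1.24) and Mcam (3.35) in tdTomato+ cells have intervals that do not cross 0, and Cdh6 is left out of the tdTomato+ series because it had 2 reads there.

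The catenins that bind cadherin tails were measured beside the cadherins, and all counts in the following lists use the call over all genes in EGFP+ against tdTomato+ cells over all mice. Of 12 tested catenin and tail partner genes 3 were higher and 6 lower, with a median log2 difference of -0.57. Over all genes 9.66% were higher and 19.2% lower, with a median of -0.33, and each list below is to be read beside these. Ctnnb1, which encodes beta-catenin, had 13602 and 15048 normalized reads in UV and 16949 and 20384 in no UV EGFP+ cells, against 6930 and 7671 in UV and 6198 and 7626 in no UV tdTomato+ cells. All EGFP+ libraries were above all tdTomato+ libraries, by 1.20 ± 0.12 log2 units (limma adjusted p = 0.000154). Jup encodes plakoglobin, the catenin that also serves desmosomes. It had 227 and 179 normalized reads in UV and 236 and 244 in no UV EGFP+ cells, against 7670 and 5192 in UV and 3774 and 4286 in no UV tdTomato+ cells, a difference of -4.51 ± 0.18 (adjusted p = 1.75e-06). Ctnnd1, or p120-catenin, which holds cadherins at the surface, was higher by 1.02 ± 0.16, and Mllt4, the actin-binding afadin of nectins, was lower at -1.12 ± 0.16. The remaining higher member was Ctnna1, or alpha-catenin, at 0.73 ± 0.13, which was chosen after its value was seen.

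Transcription factors of the epithelial to mesenchymal transition, several of which repress Cdh1, went in both directions. Of 9 tested, 2 were higher and 5 lower in EGFP+ cells, with a median of -1.51. Zeb1, a zinc finger repressor, had 394 and 273 normalized reads in UV and 335 and 425 in no UV EGFP+ cells, against 70.6 and 44.5 in UV and 32.3 and 12.9 in no UV tdTomato+ cells, and was higher by 3.33 ± 0.43 log2 units (limma adjusted p = 0.000645). Zeb2, its paralog, was higher by 2.49 ± 0.33 (adjusted p = 0.000783). Snai3, a Snail family member, was lower, with 1 read over the EGFP+ libraries against 654 over the tdTomato+ libraries (734.8-fold, 95% counting interval 131.4 to 29070). The bHLH factors Twist1 and Twist2 had 0 reads in EGFP+ cells and were at least 111.6-fold and 80.53-fold lower, from 298 and 215 tdTomato+ reads. Snai1 was lower at -3.96 ± 0.70 and Snai2 at -1.51 ± 0.29, the call of Snai2 being held in 4 of 8 fits without 1 library. It was lost without no UV EGFP+ replicate 2 (-1.31, adjusted p = 0.0539), UV tdTomato+ replicate 2 (-1.40, 0.0639), no UV tdTomato+ replicate 1 (-1.53, 0.069) or no UV tdTomato+ replicate 2 (-1.48, 0.0549). Under quantile normalization the call of Snai1 was lost (adjusted p = 0.0563), and without both libraries of mouse 1 those of Zeb2 (2.31, 0.0642) and Snai2 (-1.72, 0.113). Zeb2, Snai1 and Snai2 were chosen after their values were seen.

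Proteases that shed the outer part of cadherins and L1 had 2 higher and 1 lower member of 10 tested, with a median of 0.14. Psen2, a catalytic subunit of gamma-secretase, averaged 2233 ± 430 normalized reads in EGFP+ cells and 193 ± 123 in tdTomato+ cells (SD, n = 4 each), a difference of 3.76 ± 0.21 (limma adjusted p = 7.04e-06). Adam10, the main sheddase of E-cadherin and N-cadherin, was higher by 0.98 ± 0.19 (0.79 without both libraries of mouse 1, limma adjusted p = 0.0863), and Adam8, a metalloprotease of leukocytes among other cells, was lower at -6.00 ± 0.79. Psen2 was also the 1 gene of these lists called after UV in tdTomato+ cells, at 274 and 321 normalized reads in UV and 96.8 and 78.5 in no UV tdTomato+ cells (1.75 ± 0.29, limma adjusted p = 0.0476). That call was held in 7 of 20 other settings, and its adjusted p reached 0.227 without UV tdTomato+ replicate 2.

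Among 34 other immunoglobulin adhesion genes tested, 6 were higher and 10 lower, with a median of -0.54. F11r, or JAM-A of tight junctions, averaged 192 ± 104 normalized reads in EGFP+ cells and 4171 ± 1449 in tdTomato+ cells (SD, n = 4 each), at -4.54 ± 0.27 log2 units. Bcam, a laminin receptor, was at -6.94 ± 0.43, and Icam1, a ligand of leukocyte integrins, was at -5.63 ± 0.49. Pvrl3, which encodes nectin-3, was higher by 2.36 ± 0.25. Igsf11, whose zebrafish counterpart is needed for migration and survival of pigment cells, averaged 203 ± 35.8 normalized reads in EGFP+ cells and 7.97 ± 8.83 in tdTomato+ cells (5.34 ± 0.62, limma adjusted p = 0.000365). Cadm1, a nectin-like adhesion gene, was higher by 1.25 ± 0.20, a call lost without both libraries of mouse 1 (1.28, limma adjusted p = 0.106). Igsf11 and Cadm1 were chosen after their values were seen.

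**Figure D5:**
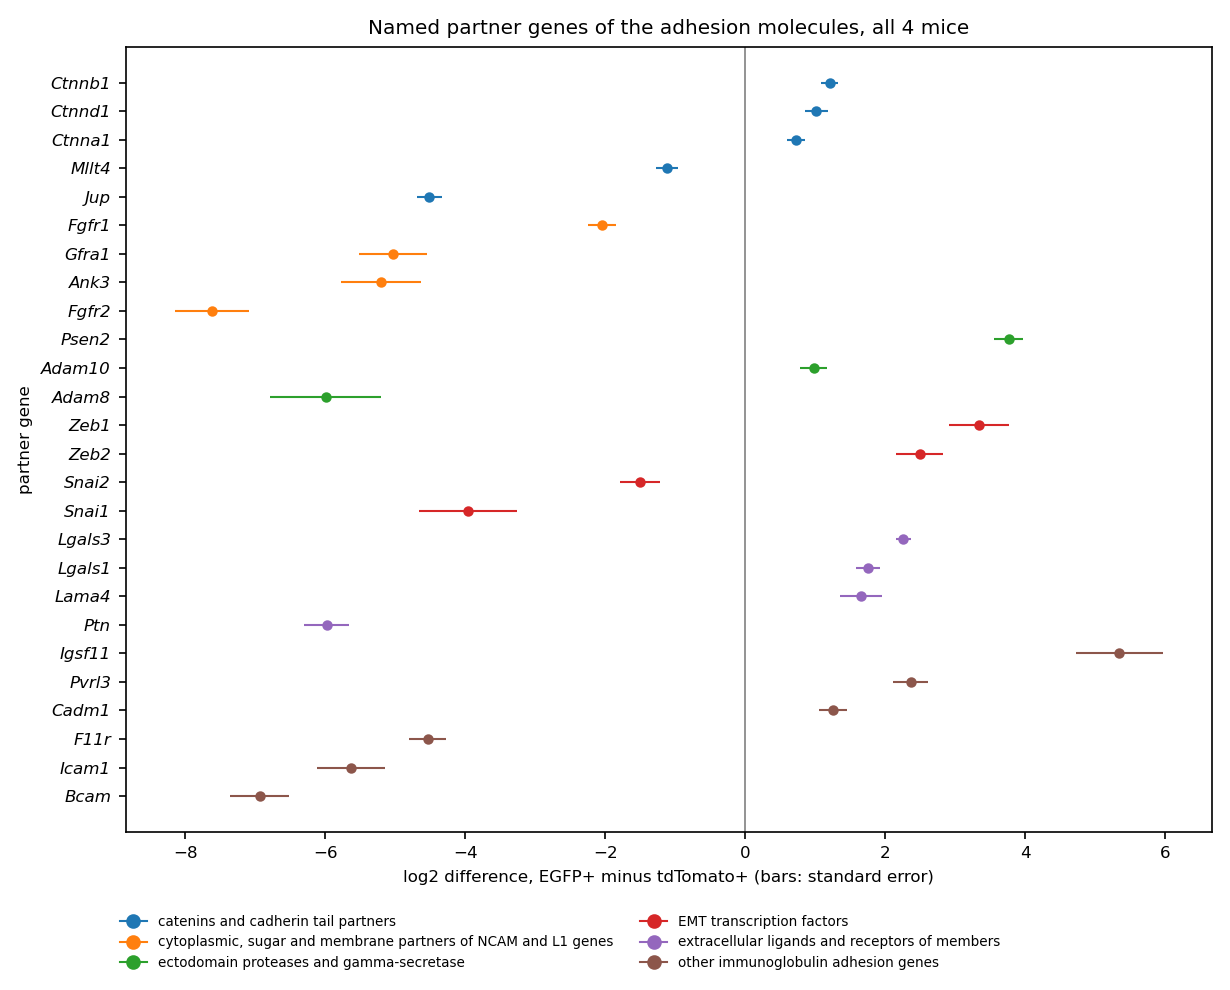
Log2 difference in EGFP+ minus tdTomato+ cells over all 4 mice (bars are the SE) of the leading genes of each partner list, coloured by list. Of those plotted, Igsf11 (5.34) lies farthest to the right and Fgfr2 (-7.61) farthest to the left; Snai3, Twist1, Twist2 and Cdh5 are left out because they had at most 1 read in EGFP+ cells.

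Of 18 tested receptors, tail partners and sugar-adding enzymes of NCAM and the L1 family, 2 were higher and 6 lower, with a median of -0.27, close to that of all genes. Fgfr2, an FGF receptor of epithelia, averaged 6.12 ± 4.50 normalized reads in EGFP+ cells and 1290 ± 540 in tdTomato+ cells (SD, n = 4 each), at -7.61 ± 0.53. Fgfr1, the FGF receptor bound by NCAM, was at -2.04 ± 0.20, Gfra1 at -5.03 ± 0.48 and Ank3, which encodes an ankyrin that anchors L1 family tails, at -5.21 ± 0.58. The 2 higher genes, chosen after their values were seen, were Msn, which encodes the actin linker moesin, at 1.18 ± 0.17, and the Src family kinase gene Fyn at 1.63 ± 0.27.

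Outer ligands of the members had 4 higher and 4 lower of 14 tested, with a median of -0.40, close to that of all genes. Lgals3, the sugar-binding galectin-3, averaged 129084 ± 14692 normalized reads in EGFP+ cells and 26963 ± 2677 in tdTomato+ cells (2.26 ± 0.11, limma adjusted p = 3.39e-06). Lgals1, galectin-1, was higher by 1.75 ± 0.17, and Lama4, the laminin chain that MCAM binds, by 1.65 ± 0.30, a call lost without both libraries of mouse 1 (1.96, adjusted p = 0.0618). The remaining called ligands and receptors, chosen after their values were seen, were the integrin chain gene Itgb1 at 0.64 ± 0.13 and, among the lower ones, Wnt5a at -4.68 ± 0.88, S100a9 at -6.69 ± 1.27 and Itga2 at -3.76 ± 0.79. Ptn, the secreted growth factor pleiotrophin, was lower at -5.98 ± 0.32, and it was the 1 gene of these lists called after UV in EGFP+ cells. It had 12.6 and 7.54 normalized reads in UV EGFP+ cells, against 956 and 375 in no UV EGFP+ cells (-5.80 ± 0.46, limma adjusted p = 0.0161). The call of Ptn after UV was held in 11 of 20 other settings, and it was lost without both libraries of mouse 1 (-5.12). Of the 8 settings that dropped a single library it held in 1, where UV EGFP+ replicate 1 was dropped, and its adjusted p was highest at 0.461 where UV tdTomato+ replicate 1 was dropped.

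Of 15 other cadherin genes tested, none was higher and 1 was lower in EGFP+ cells. That gene was Cdh5, the cadherin of endothelium, with 1 read over the EGFP+ libraries against 122 over the tdTomato+ libraries, 137.1-fold fewer (95% counting interval 24.15 to 5458; limma adjusted p = 0.0418). Of the tdTomato+ reads, 103 came from UV tdTomato+ replicate 1. Its call was held in 7 of 19 other settings, and it was lost without both libraries of mouse 1 (-2.06 log2 units).

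The genes whose values ran most like those of a member over the 8 libraries are named as a description, since libraries of 2 unlike populations make high correlations common. By Pearson r of log2 values, Cdh19 was most like Gbp3 (0.997) and Enpp5 (0.995), Nrcam was most like Ttyh2 (0.996), and Ncam1 was most like Bcl2 and Crebrf (0.988 each). Cdh2 was most like Pip5k1b and Gbp3 (0.989 each), Cdh3 like Dkk3 (0.983) and Zhx2 (0.979), and Cdh11 like Slc25a17 (0.993) and Areg (0.989). The 3 genes with overlapping populations were Cdh1, most like Nr3c1 (0.974) and Arl13b (0.973), L1cam, most like Tubb5 (0.976) and Iah1 (0.961), and Mcam, most like Ccnt1 (0.992) and Smyd5 (0.975).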

How the data were processed

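RNA from sorted cells was made into libraries with an oligo(dT)-based kit that does not keep strand, from 1 µg of total RNA, per the labels' protocols. The submitters' processing notes name the build mm10 and the tools DESeq2 1.14.1, Cufflinks 2.2.1, TopHat2 2.0.12 and FastQC. For the counting tool and annotation, the sources used here give none. The deposited signal values are reads divided by a size factor for each library, called normalized reads, and whole reads were recovered from them (195368 of 195368 values, 100%, within 0.01 of a whole number; size factors 0.701 to 1.20). The authors' log2 fold change, its error, a score and p-values for EGFP+ over tdTomato+ cells are in the same table as deposited and were used only where they are named.

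The limma model (3.58.1, R 4.3.3) took log2(value + 1) of all 8 libraries, 1 mean for each group and a trended prior. It had 4 residual degrees of freedom, and a median of 8.4 in total with the prior. A gene was tested if any group mean reached 1, and Benjamini-Hochberg adjusted p under 0.05 was the call. The added 1 read shrinks folds of low genes on this scale. Not every difference is understated, since those of Cdh2 and Cdh19 over all mice were larger with limma than with edgeR or DESeq2. The script was tested on simulated data. Exon lengths came from GENCODE M21 (mm10) and promoters from RefSeq (GRCm38.p6). Exact tests of 2 against 2 libraries cannot give p under 0.333 and were not used. The alternatives were pseudocounts of 0.1 and 5, other filters, scalings and fits, edgeR 4.0.16 and DESeq2 1.42.0 on recovered reads, and leaving out libraries; exon length by longest transcript and permutation within mice were added after seeing the data.

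The members and lists were chosen with earlier results of these data known. All members were named, and, of each partner list, up to 4 called genes with the smallest p and any called after UV. For likeness, the 2 genes with the highest r were taken among genes with a mean of at least 50, which left out none of the members but Cdh6. Some marker and likeness values are not reported here. EGFP+ and tdTomato+ cells of a mouse come from the same animal, so the mouse pairs them: deviations from the group means correlated at 0.0562 in UV and 0.0873 in no UV mice across genes. Replicate numbers do not pair UV with no UV mice.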

Additional observations from a re-analysis of the deposited data

How the results depend on the processing

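The calls of Ncam1, Nrcam, Cdh6 and Cdh11 over all mice were kept in all 19 alternatives. The number of members called in UV mice was 4, against 7 with edgeR, 7 with DESeq2 and 2 to 6 without 1 library. In no UV mice it was 7, against 4 with a pseudocount of 0.1, 4 with only the libraries compared, 4 without both libraries of mouse 1 and 2 to 6 without 1 library. For UV in tdTomato+ cells it was 0, against 1 with edgeR, 1 with DESeq2, 1 without both libraries of mouse 1 and 0 to 2 without 1 library, and for the difference between UV changes 0, against 1 without both libraries of mouse 1 and 0 to 1 without 1 library. Of all genes in no UV mice, 2976 were called with a pseudocount of 0.1 and 3849 with only the libraries compared, against 3468 in the main fit. With mouse as a block, 7, 4 and 6 members were called over all mice, in UV mice and in no UV mice. Of all genes 5221, 3190 and 3288 were called in these 3 fits, against 5217, 3240 and 3468 without the block. For the difference between UV changes 0 members were called with mouse as a block. With replicate number as a block 0 members were called in each UV comparison. The only member call that the block changed was that of Cdh11 in no UV mice. Among the partner genes the block ended the call of Cdh5 over all mice (adjusted p = 0.0511) and that of Psen2 after UV in tdTomato+ cells (0.0608). The same-number correlations across UV arms were 0.0549 in EGFP+ and 0.0759 in tdTomato+ cells.

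Signs turned only for values near 0 or with wide intervals. In UV mice Cdh1 was at 0.059 under quantile normalization, 0.15 rescaled without the 20 most abundant genes and 0.010 with edgeR, and L1cam in no UV mice was at 0.11 under quantile normalization. Without both libraries of mouse 1 the UV difference in EGFP+ cells was 0.040 for Cdh19 and -0.16 for Nrcam. Cdh19 after UV in tdTomato+ cells was at -0.72 with edgeR and -0.70 with DESeq2, and its difference between UV changes at 0.59 with each. Without 1 library, L1cam over all mice ran from -0.10 to 0.19, and in UV mice Cdh1 ran from -0.39 to 0.26 and Mcam from -1.68 to 1.78. After UV in EGFP+ cells Cdh19 ran from -0.25 to 0.040, Ncam1 from -0.39 to 0.31, Nrcam from -0.16 to 0.35 and Mcam from -1.33 to 2.14. After UV in tdTomato+ cells Cdh2 ran from -0.85 to 3.99, Cdh19 from -1.66 to 3.85, Ncam1 from -0.47 to 0.10 and Nrcam from -0.52 to 1.15, and the difference for Cdh19 from -3.95 to 1.56. The cause was not tested.

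Scaling moved the balance over all genes. In EGFP+ against tdTomato+ cells over all mice 33.5% of calls were higher, against 51.7% under quantile normalization (2857 higher, 2672 lower) and 47.8% rescaled (2655 higher, 2895 lower), with the median log2 difference at -0.33, 0.11 and -0.13. The 7 calls of members kept their direction under both. Without its trend, moderation left Cdh19 over all mice at adjusted p = 0.0521. A fit of only the libraries compared is the main fit itself for all mice and for the difference between UV changes.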
